A study of Mus musculus with 8 samples.

Results

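The 8 muscles of this study carry the numbers 1 to 4 within each genotype, and the samples numbered 1 and 2 are set here against those numbered 3 and 4. Each side holds 4 of the 8 samples, 2 of each genotype. The grouping was chosen on measured values: in an earlier look at the same arrays, the levels of clock genes and of other transcripts differed with the sample number. The labels do not say what the numbers mean, and they give no time of harvest, cohort or litter. The number is no treatment. The difference between the sides is therefore given as a description with no p-value, and tests are given only for comparisons that did not choose the grouping.

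All mice were male C57BL/6 and carried Foxp3-Cre, the controls included. The ST2 flox group is labelled ST2 FL/Foxp3-Cre and the ST2 WT group ST2 WT/Foxp3-Cre, with 4 samples each. ST2 is the receptor of the alarm cytokine interleukin-33, and Foxp3-Cre acts in regulatory T cells, which make up a small part of whole muscle. In every mouse the tibialis anterior (a muscle of the shin with mostly fast fibres) was frozen for 8 seconds with a cold metal probe and taken 8 days later. Age is 10 weeks in the labels and 2 months in the series text. RNA of the whole muscle was hybridised to Affymetrix Mouse Gene 1.0 ST arrays, 1 array per sample. The labels do not state that each sample came from a separate animal, so a p-value measures only how these samples vary, and part of that may be technical. In whole tissue, fewer cells of a type and less RNA per cell cannot be told apart.

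All arrays had the transcripts of mature muscle, with log2 levels of 13.65 to 13.86 for the actin Acta1 and 13.31 to 13.50 for the fast myosin Myh4, and those of regenerating fibres, with 9.01 to 9.74 for the embryonic myosin Myh3. The median intensity per array lay between 185 and 189. Several arrays stood apart. The distribution was widest on flox array 1, with a lower quartile of 6.23 and an upper quartile of 8.92 in log2, and narrowest on flox array 4, with 6.43 and 8.77. WT array 4 alone was high in transcripts of skin keratinocytes, with a log2 level of 9.66 for Krt10 against 6.85 to 7.25 on the other 7 arrays. Several defining markers of other cell types were not among the genes tested, including S100a8, Ly6g and Retnlg of neutrophils, Cd3d and Trac of T cells, Cd79a and Ms4a1 of B cells, Krt14 and Krt1 of skin, and Hbb-bt and Hba-a1 of red cells.

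Of 15007 genes tested, 681 (4.54%) were higher on all 4 arrays numbered 1 and 2 than on any array numbered 3 and 4, and 932 (6.21%) were lower on all of them. Such genes are called apart below. With a difference of at least 0.3 in log2, or 1.23-fold, 186 genes (1.24%) were apart and higher in numbers 1 and 2, and 108 (0.72%) were apart and lower. Those past 1 in log2 were 10 higher and 1 lower. The median difference over all genes was -0.02. The 294 genes apart by at least 0.3 became 472 without flox array 3 and 587 without WT array 1. The higher ones became 340 and 420, and the lower ones became 165 without flox array 2 and 167 without WT array 1. Leaving out a sample makes it easier for the remaining arrays not to overlap.

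The sign was checked within each genotype. It was the same in flox and in WT for 8195 of the 15007 genes (54.6%). Past 0.3 in log2, 1073 genes were higher and 740 lower within flox, and 195 were higher and 426 lower within WT. Both genotypes passed 0.3 in the same direction for 138 higher and 78 lower genes, and in opposite directions for 12. The median absolute difference was 0.125 in flox and 0.0796 in WT. Across genes, which are not independent replicates, the differences of the genotypes had a Pearson r of 0.297 and a Spearman rho of 0.156. The deviations of arrays from their genotype means, compared across genotypes, had correlations of -0.00 to 0.35 for the 8 pairs on the same side and of -0.37 to 0.11 for the 8 pairs on opposite sides. The ranges overlap, and they describe the values that chose the grouping.

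**Figure D1:**
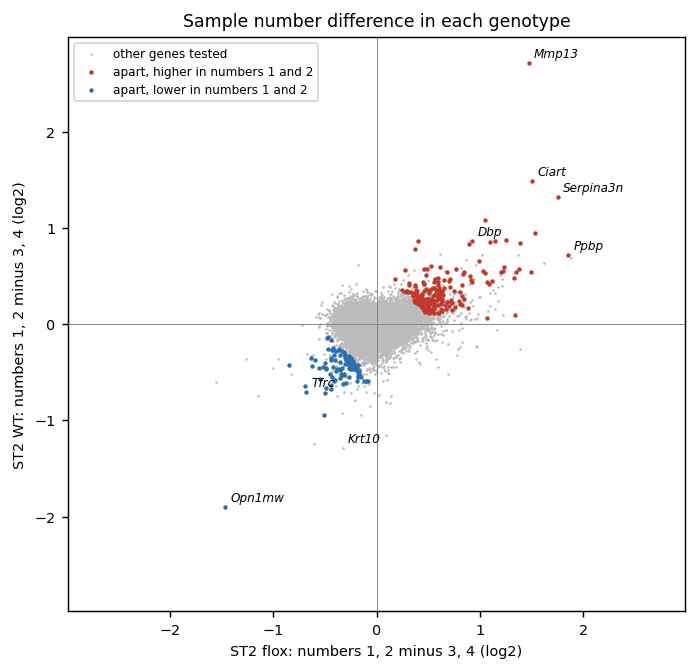
The difference between samples numbered 1 and 2 and samples numbered 3 and 4 (log2) within ST2 flox muscle on the x axis and within ST2 WT muscle on the y axis, 1 point per gene. The 186 genes apart and higher by at least 0.3 are red, the 108 apart and lower are blue, and Mmp13, Ciart and Opn1mw lie far from 0 in both genotypes, while the spread of the other genes is wider along the flox axis.

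The circadian clock is a transcriptional loop that runs in muscle as in most tissues. The activators Clock and Arntl (BMAL1) bind E-boxes and switch on the Per and Cry genes, whose products then repress the activators. A second loop passes through the nuclear receptors Nr1d1 and Nr1d2, which repress Arntl and Nfil3 at ROR elements, and the output factors Dbp, Tef and Hlf act at D-boxes against the repressor Nfil3. Arntl and Nfil3 are textbook examples of transcripts that run in the opposite phase to Dbp and the Per genes.

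Stretches of promoters are shown for 5 clock genes and 1 metabolic gene that hold one of these elements before the start and were apart by sample number. They are a selection: Tspan4, which was also apart, holds an E-box before the start and is not shown. Arntl holds a ROR element after the start, and Bhlhe41 and Tef, which were not apart, each hold an E-box. They are RefSeq sequences of mouse assembly GRCm38.p6, written 5′ to 3′ on the strand of the gene, with the element in capitals and up to 20 bases on either side, from windows of 250 bases before to 50 bases after the start of the gene. Ciart is at chr3:95882247-95882364 (minus strand, 136 to 19 bases before the start), with 3 E-boxes (CACGTG). Per1 is at chr11:69098763-69098808 (plus strand, 186 to 141 before) and Cry1 at chr10:85185089-85185134 (minus strand, 80 to 35 before), each with 1 E-box. Per3 is at chr4:151044796-151044890 (minus strand, 225 to 131 before), with 2 D-boxes (TTATGTAA). Nfil3 is at chr13:52981040-52981071 (minus strand, 32 to 1 before), with 1 ROR element (TAGGTCA, here on the other strand, so that it reads TGACCTA). Ppp1r3c is at chr19:36736683-36736728 (minus strand, 124 to 79 before), with 1 E-box.
Ciart: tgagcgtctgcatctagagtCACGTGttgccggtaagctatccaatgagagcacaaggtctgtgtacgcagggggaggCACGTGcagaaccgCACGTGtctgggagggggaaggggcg
Per1: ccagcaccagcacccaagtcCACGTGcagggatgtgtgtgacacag
Cry1: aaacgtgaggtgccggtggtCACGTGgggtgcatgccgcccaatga
Per3: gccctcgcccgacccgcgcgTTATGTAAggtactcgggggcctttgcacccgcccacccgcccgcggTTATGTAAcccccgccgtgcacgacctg
Nfil3: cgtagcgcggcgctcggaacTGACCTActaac
Ppp1r3c: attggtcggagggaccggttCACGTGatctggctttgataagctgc

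Both strands were searched for these 3 motifs, and overlap with other motifs was not checked. A gene was counted if any of its windows held a match. A CACGTG was found in 5 of 17 clock genes with a promoter sequence (29.4%). It was found in 16 of 138 such genes apart and higher (11.6%) and 12 of 77 apart and lower (15.6%). Of all 11846 tested genes with a promoter sequence, 11% held it. A TTATGTAA was found in 1 of the 17 clock genes (5.88%), in 1.45% and 0% of the genes apart and higher and apart and lower, and in 0.701% of all tested genes. For TAGGTCA the shares were 11.8%, 2.17%, 6.49% and 2.39%. Over all 32851 windows of this length, the shares were 7.15%, 0.938% and 2.61%. These are counted by window and not by gene, so they are not the same measure. A match is a run of letters and not a shown binding site, and the absence of a match says only that these letters are not in the window.

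Clock genes differed by sample number in both genotypes. Of the 19 activating, repressing and output transcription factors tested, 13 (68.4%) were apart, against 10.7% of all genes tested, and 15 had the same sign in flox and in WT. These genes were part of what chose the grouping, so the shares are a description. Of the 10 repressors, 7 were apart and higher in numbers 1 and 2 and 1 was apart and lower. Of a list of 6 genes of the activating arm and the ROR loop, 3 were apart and lower: the activators Arntl and Clock, and Nfil3, a repressor that ROR factors switch on.

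The largest difference in the clock was that of Ciart, which encodes Chrono, a repressor of Clock and Arntl. On flox arrays 1 to 4 its log2 level was 7.82, 7.80, 6.28 and 6.33, and on WT arrays 1 to 4 it was 7.36, 8.15, 6.27 and 6.26. All 4 arrays numbered 1 and 2 were high, and the other 4 lay within 0.1 of each other at the level of the filter on low genes (6.35). Means were 7.78 ± 0.32 (SD, n = 4) and 6.28 ± 0.03 (SD, n = 4), a difference of 1.50 (SE 0.13), with 1.51 in flox and 1.49 in WT. Levels near the filter were not shown to be above background, so these are lower bounds, at least 2.83-fold higher over both genotypes. Its promoter stretch shown above is the only one with 3 E-boxes among those printed, which are a selection. Whether the number of E-boxes goes with the size of a difference was not tested.

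The Per genes encode the core repressors of the loop. Per1 read 8.97, 8.87, 8.48 and 8.63 on flox arrays 1 to 4 and 8.68, 9.06, 7.86 and 8.32 on WT arrays 1 to 4. Every array numbered 1 or 2 was above the other 4, by a narrow gap between WT array 1 and flox array 4, and the difference was 0.58 (SE 0.13). Per2 read 8.04, 7.94, 7.67 and 7.76 in flox and 8.08, 8.16, 7.59 and 7.51 in WT. The sides did not overlap, and the difference of 0.42 (SE 0.07) was 0.28 in flox and 0.57 in WT. Per3 read 8.71, 8.46, 7.88 and 8.16 in flox and 8.42, 8.54, 8.00 and 8.09 in WT. It too was high on all arrays numbered 1 and 2, by 0.50 (SE 0.08), with 0.56 in flox and 0.43 in WT.

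The 2 cryptochromes, partners of the Per proteins, went in opposite directions. Cry2 read 8.85, 8.70, 8.34 and 8.31 in flox and 8.65, 8.63, 8.49 and 8.42 in WT, and was higher in numbers 1 and 2 by 0.32 (SE 0.07). Cry1 read 7.53, 7.60, 7.70 and 7.66 in flox and 7.50, 7.61, 7.69 and 7.85 in WT, a difference of -0.16 (SE 0.06). Neither overlapped between the sides, although for Cry1 the gap between the sides was less than 0.1. Bhlhe40 (DEC1), a repressor that competes at E-boxes, read 9.88, 9.81, 9.21 and 9.52 in flox and 9.79, 9.94, 9.45 and 9.26 in WT, and its difference of 0.49 (SE 0.08) was alike in flox (0.48) and WT (0.51). Its relative Bhlhe41 differed by 0.11 (SE 0.08) and overlapped.

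The nuclear receptors of the second loop differed less. Nr1d2 (REV-ERB beta) read 10.15, 10.13, 9.86 and 9.98 in flox and 10.16, 10.22, 10.05 and 10.00 in WT, apart by 0.19 (SE 0.05). Nr1d1 (REV-ERB alpha) read 11.27, 11.32, 11.18 and 11.14 in flox and 11.36, 11.19, 11.63 and 11.44 in WT. It was higher in numbers 1 and 2 within flox (0.14) and lower within WT (-0.26), so that the sides overlapped and the difference was -0.06 (SE 0.09). Of the 19 clock transcription factors and repressors, 3 had an unadjusted interaction p under 0.05, near the share of all genes tested (15.3%). They were Nr1d1, Per2 and Cry2 (0.0134, 0.0261 and 0.033 in limma), and 0 of the 19 passed after adjustment.

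Of this list, 3 genes were lower in numbers 1 and 2 and the others did not separate. Arntl, the partner of Clock, read 8.41, 8.46, 9.06 and 8.68 in flox and 8.48, 8.15, 8.99 and 8.97 in WT. All arrays numbered 1 and 2 were below all others. The difference was -0.56 (SE 0.10), or 1.47-fold lower, with -0.44 in flox and -0.67 in WT. Clock itself read 9.43, 9.49, 9.68 and 9.56 in flox and 9.46, 9.40, 9.54 and 9.57 in WT, a small difference of -0.14 (SE 0.05) without overlap. The D-box repressor Nfil3 (E4BP4) read 8.10, 7.91, 8.71 and 8.10 in flox and 7.92, 7.98, 8.56 and 8.50 in WT. Its difference was -0.49 (SE 0.12), and flox arrays 1 and 4 lay at almost the same level. Rora, Rorb and Arntl2 each differed by 0.05 and overlapped.

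The output factors, by contrast, were higher. Dbp, the D-box activator, read 10.20, 10.09, 9.01 and 9.44 in flox and 9.96, 10.01, 9.20 and 9.05 in WT. No array numbered 3 or 4 came near those numbered 1 and 2, with means of 10.07 ± 0.10 (SD, n = 4) and 9.17 ± 0.20 (SD, n = 4). The difference was 0.89 (SE 0.09) or 1.86-fold, with 0.92 in flox and 0.86 in WT. Hlf was apart by 0.22 (SE 0.06), and Tef differed by 0.22 (SE 0.07) with 1 overlap, WT array 3 at 9.36 against flox array 2 at 9.35.

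**Figure D2:**
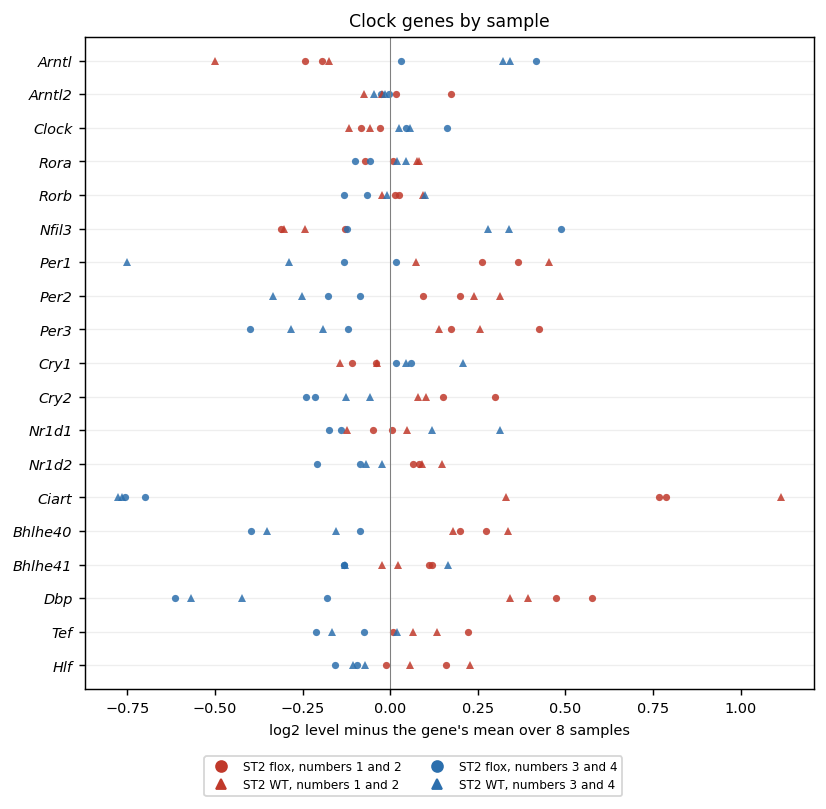
Log2 level of each of 19 clock genes minus the mean of that gene over the 8 samples (x axis), with 1 point per sample, circles for ST2 flox, triangles for ST2 WT, red for numbers 1 and 2 and blue for numbers 3 and 4. Red points lie to the right for Per1, Per2, Per3, Cry2, Ciart, Bhlhe40 and Dbp and to the left for Arntl, Clock, Nfil3 and Cry1, and Rora, Rorb, Arntl2 and Nr1d1 are mixed.

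Of 8 kinases and degradation factors of the clock, 2 (25%) were apart and higher, against 4.54% of all genes. These were the deubiquitinases Usp2, itself a rhythmic transcript, by 0.27 (SE 0.07), and Usp7 by 0.19 (SE 0.06). The casein kinases Csnk1d and Csnk1e differed by -0.01 and 0.02. A list of 19 transcripts known as rhythmic in tissues had 4 apart and higher and 4 apart and lower (42.11% together, against 10.7% of all genes). Its median was -0.04. Ppp1r3c, which targets protein phosphatase 1 to glycogen, read 10.62, 10.38, 11.32 and 11.05 in flox and 10.62, 10.56, 11.24 and 11.22 in WT. It was low on all arrays numbered 1 and 2, by -0.67 (SE 0.08) or 1.59-fold, and alike in flox (-0.69) and WT (-0.64). Tfrc, the transferrin receptor, read 10.20, 10.59, 11.17 and 10.98 in flox and 10.55, 10.24, 10.94 and 11.26 in WT. It too was low on all 4, by -0.69 (SE 0.11), with -0.68 and -0.70 in the genotypes. Tspan4, a tetraspanin, was apart and higher by 0.44 (SE 0.08), while Pfkfb3, which sets the rate of glycolysis, was higher by 0.55 (SE 0.14) but overlapped, with 0.85 in flox and 0.26 in WT.

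The largest difference of any gene was that of Mmp13, a collagenase. Mmp13 read 10.24, 9.64, 8.52 and 8.42 on flox arrays 1 to 4 and 9.52, 10.81, 7.50 and 7.40 on WT arrays 1 to 4. The sides were far apart in each genotype, at 10.05 ± 0.60 (SD, n = 4) and 7.96 ± 0.59 (SD, n = 4), a difference of 2.09 (SE 0.31) or 4.26-fold. It was 1.47 in flox and 2.71 in WT, and the interaction of -1.24 (SE 0.49) had an adjusted p of 0.301 in limma. Mmp3 (stromelysin-1), another matrix protease, was apart by 0.86 (SE 0.20), with 0.89 in flox and 0.84 in WT.

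Secreted products of stroma and the acute phase followed. Serpina3n, an acute-phase protease inhibitor, read 11.41, 10.91, 9.82 and 8.99 in flox and 10.43, 11.05, 9.12 and 9.72 in WT. Its difference was 1.54 (SE 0.22), or 2.90-fold, and no array overlapped. Lcn2 (lipocalin-2), which binds bacterial siderophores, read 9.24, 8.57, 7.73 and 7.30 in flox and 7.83, 8.52, 7.50 and 7.17 in WT, a difference of 1.12 (SE 0.20). WT array 1 and flox array 3 lay 0.1 apart, so the gap was narrow. The matrix protein Efemp1 (fibulin-3) was higher by 0.92 (SE 0.19) and the Wnt modulator Sfrp2 by 0.91 (SE 0.26), with larger differences in flox (1.23 and 1.33) than in WT (0.60 and 0.48).

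Several leading genes are known from macrophages and platelets. Ppbp, the platelet chemokine CXCL7, read 8.79, 9.24, 7.09 and 7.24 in flox and 7.51, 8.43, 7.00 and 7.51 in WT. The difference of 1.28 (SE 0.26) was uneven, with 1.85 in flox and 0.72 in WT, and WT arrays 1 and 4 both rounded to 7.51. Cxcl13, a chemokine for B cells, read 7.97, 7.92, 7.07 and 6.63 in flox and 7.96, 8.00, 7.11 and 7.14 in WT. Here the 4 arrays numbered 1 and 2 lay within 0.1 of each other, at 7.96 ± 0.03 (SD, n = 4) against 6.98 ± 0.24 (SD, n = 4). Wfdc17, a secreted product of activated macrophages, differed by 1.24 (SE 0.18), the lectin Cd209f by 1.06 (SE 0.20), the fungal receptor Clec4n (dectin-2) by 1.01 (SE 0.20), the coagulation factor F13a1 by 0.98 (SE 0.18) and the haem-degrading enzyme Hmox1 by 0.95 (SE 0.17). All 5 had larger differences in flox than in WT. For Clec4n these were 1.49 and 0.54, for F13a1 1.38 and 0.57, and for Hmox1 1.35 and 0.54.

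Of the remaining leading genes, Dubr is a long noncoding RNA and Chl1 a neural adhesion molecule. Dubr read 9.28, 9.30, 7.91 and 8.57 in flox and 8.98, 8.95, 7.85 and 7.90 in WT, a difference of 1.07 (SE 0.12) that was nearly equal in flox (1.05) and WT (1.09). Flox array 4 lay between the sides. Chl1 differed by 1.00 (SE 0.22), with 1.15 in flox and 0.86 in WT.

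Fewer genes were lower by as much. Opn1mw, which encodes a cone photopigment, read 6.20, 6.52, 7.77 and 7.87 in flox and 6.00, 6.33, 8.04 and 8.09 in WT. The 4 arrays numbered 1 and 2 lay near the filter on low genes, and the other 4 were well above it. Means were 6.26 ± 0.22 (SD, n = 4) and 7.94 ± 0.15 (SD, n = 4), a difference of -1.68 (SE 0.11), with -1.46 in flox and -1.90 in WT. As for Ciart, the low side was not shown to be above background, so the level was at least 3.21-fold lower.

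Muscle and metabolic transcripts were among the other lower genes. Ppp1r27, a phosphatase inhibitor, read 8.92, 9.01, 9.64 and 9.31 in flox and 8.85, 8.61, 9.81 and 9.54 in WT, a difference of -0.73 (SE 0.12) without overlap. Inha, the alpha subunit of inhibin, read 8.42, 8.18, 8.86 and 8.83 in flox and 8.30, 8.19, 8.84 and 8.79 in WT. Its arrays numbered 3 and 4 lay within 0.1 of each other, and its differences in flox (-0.55) and WT (-0.57) were alike. Vgll2, a muscle cofactor of TEAD factors, differed by -0.54 (SE 0.10), the kelch gene Klhl30 by -0.50 (SE 0.07), the lipid hydrolase Pnpla3 by -0.51 (SE 0.07), the potassium channel subunit Kcne1l by -0.53 (SE 0.08) and the natriuretic peptide clearance receptor Npr3 by -0.58 (SE 0.13). All 5 had the same sign in both genotypes. The small nucleolar RNAs Snora74a (-0.64, SE 0.12), Snord33 (-0.61, SE 0.12) and Snora33 (-0.49, SE 0.11) were apart as well. For Snora33 the low side lay near the filter, and flox array 1 and WT array 3 both rounded to 6.52. Such RNAs lie within host genes and have near-identical copies, so their rows are uncertain.

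**Figure D3:**
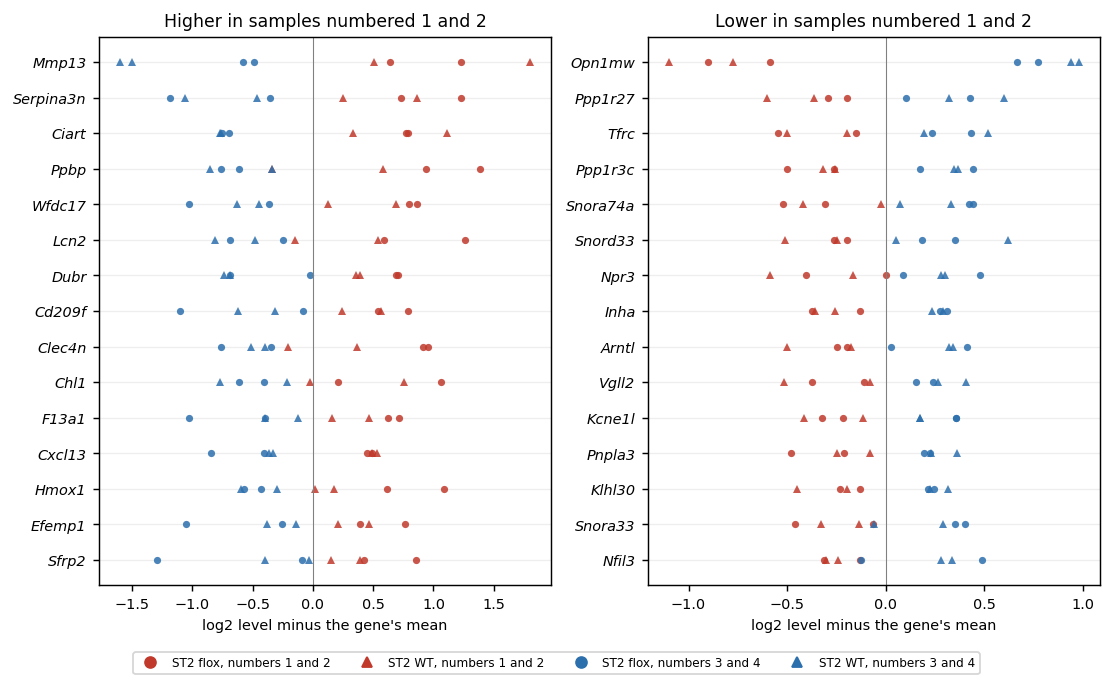
Log2 level minus the mean of the gene over the 8 samples (x axis) for the 15 genes with the largest differences in each direction among those apart, with circles for ST2 flox, triangles for ST2 WT, red for numbers 1 and 2 and blue for numbers 3 and 4. Colours do not mix for any gene, because that is how the genes were picked, and Mmp13 in WT has the widest gap.

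Transcripts of mitochondrial energy metabolism were lower in numbers 1 and 2 as a group. Of 35 oxidative phosphorylation genes tested, 0 had a higher mean and 21 (60%) were apart and lower, against 6.21% of all genes, with a median of -0.16 against -0.02 over all genes tested. The median was -0.12 in flox and -0.23 in WT. Cox5a, a subunit of cytochrome c oxidase, read 10.52, 10.54, 10.97 and 10.73 in flox and 10.65, 10.41, 11.18 and 10.94 in WT. It was low on all arrays numbered 1 and 2, by -0.42 (SE 0.09). Ndufa9 of complex I read 10.76, 10.72, 11.09 and 11.13 in flox and 10.88, 10.74, 11.35 and 11.18 in WT, also without overlap, a difference of -0.41 (SE 0.06). Uqcrfs1, the Rieske protein of complex III, was apart by -0.34 (SE 0.07), and Ndufa4 differed by -0.33 (SE 0.11) but overlapped.

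Of 26 genes of the citric acid cycle and of fatty acid oxidation, 1 had a higher mean and 17 (65.4%) were apart and lower, against 6.21% of all genes, with a median of -0.20, -0.12 in flox and -0.27 in WT. Slc25a20, the carnitine carrier of the inner mitochondrial membrane, was apart by -0.35 (SE 0.09), and Etfdh and Etfb, which pass electrons from fatty acid oxidation to the respiratory chain, by -0.29 (SE 0.07) and -0.25 (SE 0.05). The fatty acid binding protein Fabp3 differed by -0.36 (SE 0.14) and overlapped. The mean over this list of log2 levels centred per gene was -0.08, -0.05, 0.06 and 0.02 on flox arrays 1 to 4 and -0.07, -0.18, 0.22 and 0.08 on WT arrays 1 to 4. All arrays numbered 1 and 2 were below 0 and the other 4 above it, with the widest gap between WT arrays 2 and 3. For oxidative phosphorylation the list means were -0.06, -0.12, 0.05 and 0.03 in flox and -0.05, -0.14, 0.20 and 0.08 in WT, in the same arrangement.

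Genes of fast and mature fibres were lower by small amounts. Of 30 such genes, 28 had a lower mean and 9 (30%) were apart and lower, against 6.21% of all genes, with a median of -0.07. The fast light chain Mylpf was apart by -0.27 (SE 0.08), while the fast myosin Myh2 differed by 0.14 in flox and -0.74 in WT. Slow and regenerating fibre genes were not alike in the genotypes. Their medians were -0.14 and -0.22 in flox and 0.01 and 0.07 in WT, with the same sign in both genotypes for 4 of 10 and 7 of 20 genes. In each list 1 gene was apart (10% and 5%, against 10.7% of all genes). These were the oxygen carrier Mb, by -0.20 (SE 0.06), and cardiac actin Actc1, which regenerating fibres express, by -0.32 (SE 0.06). Of 17 satellite cell and myoblast genes, 6 were apart and lower and 1 apart and higher (41.18% together, against 10.7% of all genes). The median was -0.11. Myod1, the factor that commits cells to the myogenic lineage, read 9.17, 9.21, 9.50 and 9.83 in flox and 9.36, 9.30, 9.50 and 9.42 in WT. It was lower in numbers 1 and 2 by -0.30 (SE 0.09), mostly in flox (-0.47) and less in WT (-0.13). The heparan sulphate proteoglycan Sdc4 differed by -0.32 (SE 0.06) and the engulfment receptor Megf10 by -0.29 (SE 0.08), both apart, and the adhesion molecule Vcam1, also made by other cells, was apart and higher by 0.30 (SE 0.06).

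Genes of insulin action and glucose storage had the same arrangement in part. Of 15 tested, 3 (20%) were apart and lower, against 6.21% of all genes, with a median of -0.06. Among them were Ppp1r3c and the insulin-responsive glucose transporter Slc2a4 (-0.24, SE 0.06). Irs1, the insulin receptor substrate, differed by -0.38 (SE 0.09) but overlapped. Fatty acid synthesis genes were mixed: of 16, 10 had a higher mean, the median was 0.06 (0.15 in flox and -0.06 in WT), and 6 had the same sign in both genotypes. The 2 that were apart (12.5%, against 10.7% of all genes) were lower, Pnpla3 and the carbohydrate-sensing factor Mlxipl (-0.33, SE 0.06). Of 17 genes of glycolysis and its branch to glycerol, 5 had a higher mean, and the median was -0.04. In this list 3 were apart and lower and 1 apart and higher (23.53% together, against 10.7% of all genes). Gpd1 and Pgk1 were apart and lower, by -0.39 (SE 0.09) and -0.29 (SE 0.05).

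Genes of macrophages and of several other immune and stromal lists had higher median differences within flox than within WT. The contrast of the medians was not tested, and 0 single genes passed the adjusted threshold. Regulatory T cell and B cell genes went the other way, with medians of -0.04 and -0.05 in flox and 0.04 and 0.02 in WT. Of 24 genes of macrophages and monocytes, 23 had a higher mean, but 2 were apart and higher and 1 apart and lower (12.5% against 10.7% of all genes). The median was 0.26, made of 0.49 in flox and 0.02 in WT. The mean of the list read 0.33, 0.40, 0.05 and -0.40 in flox and -0.16, 0.02, -0.12 and -0.12 in WT, in order of number. Flox arrays 1 and 2 were high and flox array 4 was low, and the WT arrays lay close together whatever their number. C1qb, a chain of complement C1q, was apart by 0.48 (SE 0.09). The mannose receptor Mrc1 differed by 0.64 (SE 0.19), with 0.99 in flox and 0.28 in WT, and the monocyte chemokine receptor Ccr2 by 1.16 in flox and -0.06 in WT.

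The lists of inflammatory mediators, neutrophils and antigen presentation also had higher medians in flox than in WT. Their medians were 0.45, 0.49 and 0.36 in flox and 0.10, 0.11 and 0.00 in WT. The neutrophil list was small and mixed: of 7 genes tested, 4 had a higher mean and 3 a lower one. In that list 4 genes had the same sign in both genotypes. Of 16 antigen presentation genes, 13 had a higher mean and 3 a lower one. Of the 11 inflammatory mediators, 10 had a higher mean and 0 (0%) were apart, against 10.7% of all genes. Il1b, the gene of interleukin-1 beta, read 7.77, 7.60, 6.60 and 6.34 in flox and 6.25, 6.98, 6.26 and 6.18 in WT. Flox arrays 1 and 2 were high, and of the WT arrays WT array 2 was. Cd86, a costimulatory molecule, was apart by 0.51 (SE 0.13), with 0.81 in flox and 0.21 in WT. Its arrays numbered 3 and 4 read 6.18 to 6.48, also near the filter. Repair macrophage genes had a median of 0.20, with 0.25 in flox and 0.11 in WT, although Mmp12 and Retnla were lower in both genotypes, by -0.49 (SE 0.17) and -0.41 (SE 0.30) over all arrays.

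Among stromal lists, fibro-adipogenic progenitors, the mesenchymal cells of muscle, had 15 of 17 genes with a higher mean. Of the 17, 3 (17.65%) were apart and higher, against 4.54% of all genes. The median was 0.19 (0.28 in flox and 0.05 in WT). Osr1, a transcription factor of these cells, was apart by 0.45 (SE 0.12), and Apod by 0.44 (SE 0.08). The list means were 0.26, 0.10, 0.00 and -0.40 in flox and 0.03, 0.07, -0.02 and -0.04 in WT, so flox array 4 was far below the rest. Of 37 matrix genes, 26 had a higher mean, with a median of 0.09. In this list 2 were apart and higher and 3 apart and lower (13.51% together, near the 10.7% of all genes). Timp1, an inhibitor of matrix proteases, was higher by 0.85 (SE 0.17) but overlapped, and the crosslinking enzyme Lox by 0.70 (SE 0.15), likewise. The part that the makeup of cells had in the differences of single genes was not tested.

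**Figure D4:**
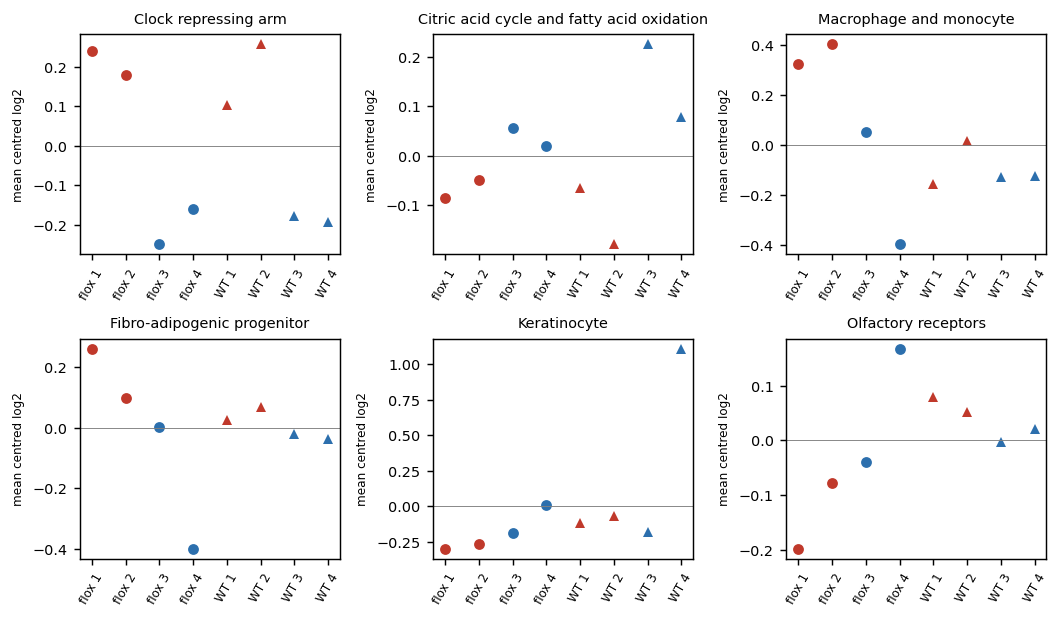
Mean over a gene list of log2 levels centred per gene (y axis) in each of the 8 samples (x axis) for 6 lists, with circles for ST2 flox, triangles for ST2 WT, red for numbers 1 and 2 and blue for numbers 3 and 4, and a separate scale in each panel. The clock repressors and the genes of the citric acid cycle and of fatty acid oxidation separate the colours, the macrophage and fibro-adipogenic panels are dominated by the flox arrays, and the keratinocyte panel by WT array 4 at 1.11.

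Whether the difference by number itself differed between genotypes was tested with the interaction in limma, the difference in flox minus that in WT. After Benjamini-Hochberg adjustment 0 of 15007 genes (0%) passed 0.05, with a smallest adjusted p of 0.278, and before adjustment 2303 genes had a p under 0.05 (15.3%, 1088 higher in flox than in WT, 1215 lower). That count was 4166 without flox array 3, 1520 without flox array 1, 1427 without WT array 1 and 1173 without flox array 4. With all 8 arrays, the count at an unadjusted p under 0.05 in limma was 1638 with quantile normalization and 1712 with cyclic loess. With median centring it was 2266, and with sample weights 2362. With the filter at the 50th percentile it was 1255 of 10031 genes. Each combination of genotype and side held 2 arrays. Without flox array 3, which leaves flox array 4 alone in its combination, 328 genes passed (200 higher, 128 lower), and without WT array 3, which leaves WT array 4 alone, 6 did. The lone array is then assumed to vary like the others. The genes that passed without flox array 3 came from lists of unequal size, so no share of a list is drawn from them. Those of the macrophage list (24 tested) and the antigen presentation list (16 tested), Ccr2 and Cd74 among them, were all higher. Those of the olfactory receptor (113 tested) and microRNA (134 tested) lists were all lower, as was Gpnmb of the repair macrophage list. The 6 were Krt10, Perp, Lce1c, Krt77, Asprv1 and Elovl4, which skin expresses, and on WT array 4 the keratinocyte list mean was 1.11 against -0.30 to 0.01 on the other 7 arrays.

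The genes with the smallest interaction p show what the arrays did. Csf3r, the receptor of the neutrophil growth factor G-CSF, read 8.54, 8.70, 7.64 and 7.45 in flox and 7.59, 7.86, 7.54 and 7.62 in WT. Flox arrays 1 and 2 were high and all others alike, and the interaction was 0.93 (SE 0.15, limma adjusted p 0.278). The monocyte chemokine Ccl7 and the lectin Clec4a1 had interactions of 1.13 (SE 0.21) and 1.25 (SE 0.23) at the same adjusted p. Chad, a cartilage and tendon matrix protein, had an interaction of the same sign, but from the WT arrays. It read 10.21, 10.13, 9.97 and 10.19 in flox and 9.65, 9.80, 10.49 and 10.58 in WT. Its flox arrays did not separate by number while its WT arrays did, and the interaction was 0.90 (SE 0.13). Bcl6, a transcriptional repressor, differed by -0.02 in flox and -0.71 in WT. The lowest interactions by p were those of Mrgprg (-0.71, SE 0.11), Mir132 (-0.67, SE 0.11), Nr2e1 (-0.74, SE 0.12), Olfr645 (-0.75, SE 0.12) and Ms4a10 (-0.56, SE 0.10), genes with log2 levels between 6.06 and 7.33 on every array.

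Dim rows moved together on the flox arrays. The 113 olfactory receptors tested, which muscle hardly expresses, had list means of -0.20, -0.08, -0.04 and 0.17 in flox and 0.08, 0.05, -0.00 and 0.02 in WT. Their median difference was -0.21 in flox and 0.05 in WT, and 30 (26.5%, against 15.3% of all genes) had an unadjusted interaction p under 0.05 in limma, 0 of them higher. The 134 microRNA genes had medians of -0.18 in flox and 0.03 in WT. These shifts run with the lower quartile of the arrays, which is lowest on flox array 1 and highest on flox array 4. Their part in the differences within flox was not tested.

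**Figure D5:**
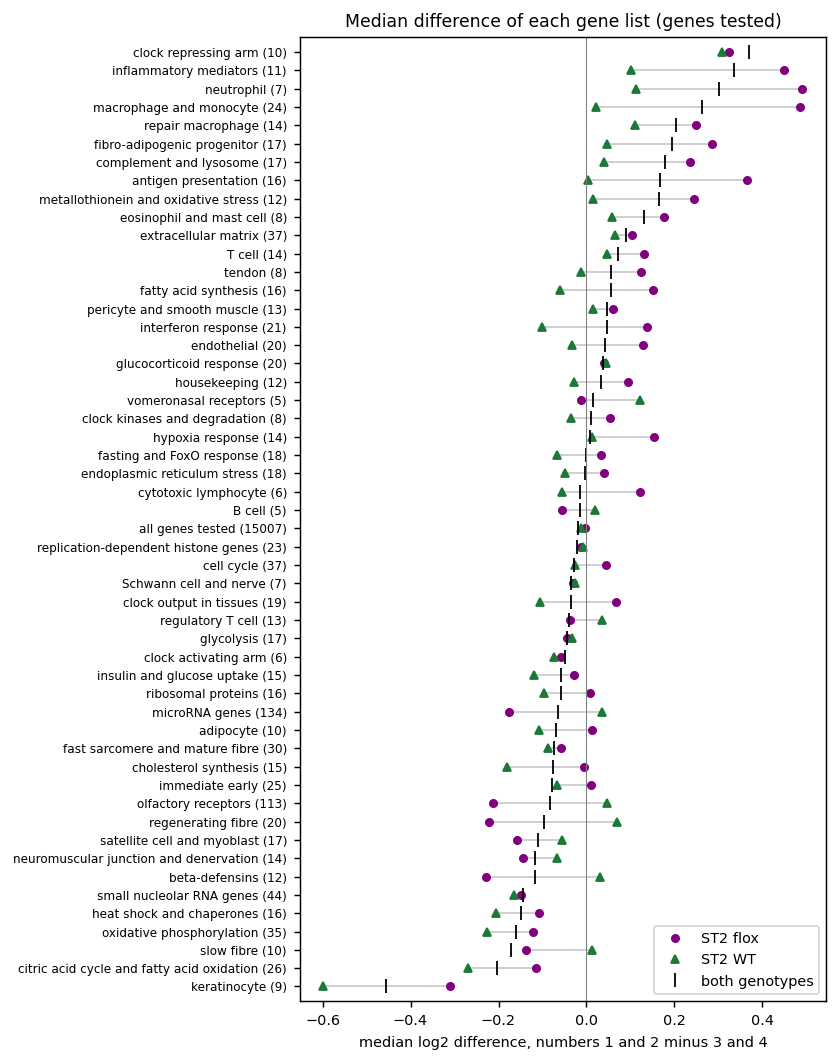
Median difference between samples numbered 1 and 2 and samples numbered 3 and 4 (log2, x axis) of each gene list with at least 5 tested genes, with the number tested in parentheses, within ST2 flox (purple circles), within ST2 WT (green triangles) and over both (black bars). The genotypes lie close together for clock repressors and small nucleolar RNA genes and far apart for macrophage, neutrophil and inflammatory genes, whose WT medians are 0.02 to 0.11.

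Lists of hormone, stress and growth responses differed among themselves. Of 20 glucocorticoid response genes, 1 (5%) was apart, against 10.7% of all genes, and the median was 0.04. Of 12 metallothionein and oxidative stress genes, 3 were apart and higher and 1 apart and lower (33.33% together, against 10.7% of all genes). The median was 0.17 (0.24 in flox and 0.01 in WT). The metallothionein Mt2 differed by 0.90 in flox and 0.23 in WT and overlapped, and the hormone-responsive factor Zbtb16 by -0.41 (SE 0.10), also with overlap. Immediate early genes had a median of -0.08 (0.01 in flox and -0.07 in WT). Of 25 tested, 2 (8%) were apart, both higher, against 4.54% of all genes. The immediate early nuclear receptor Nr4a3 read 7.08, 7.47, 8.19 and 8.26 in flox and 6.98, 7.04, 7.30 and 7.44 in WT. Within each genotype numbers 3 and 4 were higher, but WT arrays 3 and 4 lay below flox array 2. Heat shock genes had a median of -0.15 with 4 of 16 (25%) apart and lower, against 6.21% of all genes, among them the co-chaperone Bag3 (-0.32, SE 0.08) and Hsph1 (-0.24, SE 0.06). Of 37 cell cycle genes, 0 (0%) were apart, against 10.7% of all genes, with a median of -0.03. T cell and regulatory T cell genes had medians of 0.07 and -0.04, and Foxp3 differed by -0.14 (SE 0.07). In the fasting response, the ubiquitin ligase Trim63 was apart by -0.33 (SE 0.08), and Pdk4 and Ucp3 differed by -0.29 (SE 0.11) and -0.33 (SE 0.14) with overlap.

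The small nucleolar RNA genes had a median of -0.14, with -0.15 in flox and -0.17 in WT. Of 44 tested, 6 (13.64%) were apart and lower, against 6.21% of all genes. The largest differences in this list did not separate the sides. Snora3 read 9.36, 8.84, 10.35 and 10.96 in flox and 8.97, 9.30, 9.27 and 10.19 in WT, a difference of -1.08 (SE 0.26), with flox array 4 and flox array 3 highest and WT array 3 among the low ones. Keratinocyte genes had a median of -0.46, the furthest from 0 of any list over all arrays. Of 9 tested, 1 (11.11%) was apart, against 10.7% of all genes. The median was -0.31 in flox and -0.60 in WT, and -0.15 over both genotypes without WT array 4. Krt5 read 6.47, 6.63, 6.78 and 7.08 in flox and 6.80, 6.80, 6.59 and 8.49 in WT.

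The comparison that the study was built for, flox against WT, is balanced over the sides, each of which holds 2 arrays of each genotype. With genotype alone in limma, 0 of 15007 genes (0%) passed an adjusted p of 0.05, and 569 had an unadjusted p under 0.05 (smallest adjusted p 0.912). With sample weights the latter count was 1932, and again 0 passed. With side as a term 0 passed as well, while 929 had an unadjusted p under 0.05 and the smallest adjusted p was 0.753. Without flox array 4, 3012 genes had an unadjusted p under 0.05 with genotype alone and 2 passed, Cd3g (1.19, SE 0.12, limma adjusted p 0.0271) and Ctsh (0.56, SE 0.06, limma adjusted p 0.0271), named here after their values were seen. On flox array 4 both lay below every WT array. Without flox array 2 or WT array 1, 245 and 278 genes had an unadjusted p under 0.05.

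Because the sides are balanced over genotype, modelling the side must leave each genotype difference as it was. The side was found in these same values, so a narrower error of genes that differ by number is built in. The p-values of this fit may therefore be too small. Genes were named for this fit by its smallest p, which favours narrowed errors. Nr4a3 was higher in flox by 0.56, with an SE of 0.24 without the side and 0.13 with it. Cyp26b1, which degrades retinoic acid, was lower in flox by -0.35, with an SE of 0.14 and then 0.07, and Chac1, of the stress response, by -0.57, with 0.15 and then 0.12. Gzmk, a granzyme, differed by 0.32, with 0.09 and then 0.06, the smallest unadjusted p of this fit in limma (2.25e-04, adjusted p 0.753). For Knl1, a kinetochore protein that hardly differed by number (0.03), the SE was 0.09 and then 0.10. None of these genes passed in either fit.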

How the data were processed

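The series matrix holds intensity values on a linear scale for 24922 rows. Per the submitters' processing notes, the authors made the deposited intensities with RMA in Affymetrix Power Tools. The software versions, the genome build and any row filter were not given in the sources used here. RMA compresses changes of dim rows, and it makes the arrays' distributions alike. For arrays, their number limits the precision.

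The log2 of each deposited intensity was taken with no pseudocount. Rows were named from the platform annotation (21425 with 1 symbol, 1399 with several, 2098 with none). Of these 21425 rows, 21347 had an identifier in the RefSeq table, and 0 symbols changed. Rows with a mean below the 25th percentile (log2 6.35) were left out. A gene with several rows was represented by its highest row on average, and 15007 of 19752 genes were tested. At most 14 values were identical between any 2 arrays, so no array was a copy. Differences, standard errors and tests came from limma 3.58.1 in R 4.3.3, with genotype as a term for the difference by number, and the script was tested on simulated data. Tests were two-sided with Benjamini-Hochberg adjustment over all 15007 genes and a threshold of 0.05.

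Gene lists (55, with 1064 tested entries) are described by counts and medians. Genes were named by rule: the 15 apart with the largest difference in each direction, all clock genes, up to 4 members of other lists with the largest difference, and the 5 with the smallest p in each direction of each test. Other members named beside a count, Cd3g and Ctsh among them, were chosen after their values were seen. The members, lists and rules were all chosen with earlier results of these data known. Promoters came from RefSeq, assembly GRCm38.p6. Alternatives were other normalizations between arrays (quantile, cyclic loess, median centring), other filters, the mean of all rows of a gene, other variance priors, sample weights, and each array left out in turn. The floxed gene is not analysed here.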

Additional observations from a re-analysis of the deposited data

Results flagged for a closer look

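Among 46 genes and 51 lists, each examined on both sides of 4 samples (194 sets of values), 8 had 1 sample far from the other 3. Chance sets apart about 1 in 20 such groups. Of the genes, Dubr was at 8.571 on flox array 4 against 7.855 to 7.907 on the other arrays numbered 3 and 4. Cxcl13 was at 6.626 on flox array 4 against 7.066 to 7.138. Bhlhe41 was at 9.134 on WT array 3 against 8.835 to 8.839.

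Of the list means (log2 levels centred per gene), 3 were low on flox array 4. The fibro-adipogenic progenitor list was at -0.3996 against -0.03841 to 0.002301 on the other arrays numbered 3 and 4. The glucocorticoid response list was at -0.06841 there, and the pericyte and smooth muscle list at -0.07045, against -0.01825 to -0.01008. On WT array 4 the keratinocyte list was at 1.109 against -0.1864 to 0.01086, and the list of clock kinases and degradation factors at 0.005234 against -0.03536 to -0.02927.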

How the results depend on the processing

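The 294 genes apart by at least 0.3 (186 higher, 108 lower) ranged from 245 to 328 under other normalizations, filters and row rules. With quantile normalization 264 of the 294 were shared, and with cyclic loess 269. With no minimum difference 1613 were apart, 681 higher and 932 lower. Without each array in turn, the total was 285 to 587, the higher ones 149 to 420 and the lower ones 82 to 167. The number of genes passing the interaction test was 0 to 328 without each array, and 0 under every other setting tried. That of the genotype test was 0 to 2 without each array, and 0 under every other setting tried. The count of lists with a median past 0.1 in either direction, 22 over all arrays, was 18 to 26 without each array. The median of the red cell list, which has 2 tested genes, went from 0.11 to -0.066 with no filter, which tests more of its genes. Over all settings, 0 named genes that were apart changed sign. Where an array was left out or the filter changed, this outcome was fixed in advance by the rule for genes apart. Only the other normalizations and the mean of all rows could have changed a sign. Sign changes of named genes that were not apart were not counted. Of the values of all named genes, 3869 moved by less than the spread between samples and 7 by more. The median of all genes moved by less than 0.03.

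The sample numbers were not used as pairs. Arrays of the same number in the 2 genotypes had correlations of their deviations of -0.00, 0.35, 0.25 and 0.04 for numbers 1 to 4, across genes. With the replicate number as a block, the genotype test passed 0 genes, with 694 at an unadjusted p under 0.05 against 569. Not every array correlated best with its own number.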
